A study of Rattus norvegicus with 6 samples.

Results

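The ligand gene Bdnf and its receptor gene Ntrk2 were followed through the brain libraries of rats with experimental autoimmune prostatitis (EAP). They are 2 of the 22250 genes in the deposited count table. The members were taken by their Ensembl gene IDs, ENSRNOG00000047466 for Bdnf and ENSRNOG00000018839 for Ntrk2, and both IDs have a line in the table. The table gives IDs without symbols, and no table used here pairs Ensembl IDs with symbols. The names therefore rest on the choice of the IDs and could not be checked against a second source.

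Bdnf encodes brain-derived neurotrophic factor, a secreted growth factor that supports the survival of neurons and the plasticity of synapses. Ntrk2 encodes TrkB, the receptor tyrosine kinase that binds it. Binding of the factor makes TrkB phosphorylate itself and start the MAP kinase, PI3 kinase and phospholipase C gamma pathways. Bdnf mRNA is made mainly by neurons, in amounts that differ between brain regions and that rise with neuronal activity; it is abundant in cortex and hippocampus and scarce in striatum, which receives much of its BDNF protein from cortical axons. Ntrk2 gives a full-length receptor, found mostly in neurons, and truncated receptors without the kinase domain, one of which is the main form in astrocytes.

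The study used 6 libraries of poly(A)-selected RNA from rat brain tissue, 3 from EAP rats and 3 labelled normal. EAP was raised by injection of a mixture of prostate protein from rats and Freund's adjuvant, and the study examined it as a model of prostatitis with sexual dysfunction. The labels used here state neither strain, age, brain region nor time after injection, and neither the treatment of the normal rats nor how many animals went into a library. Nothing in the labels says that the libraries of a group come from separate animals, so p-values measure the spread between these libraries, which may be technical.

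Libraries held 12534210 to 14669760 counts, and every pair of libraries differed by more than counting noise. Levels are given in CPM, read counts scaled to a common library size with TMM factors, which adjust for differences in library composition. CPM is not corrected for gene length, so the levels of the 2 genes are not compared with each other. The counts are summed per gene: the RefSeq table lists 11 transcripts for Bdnf and 14 for Ntrk2, and neither the alternative first exons of Bdnf nor the full-length and truncated forms of Ntrk2 can be told apart here. The markers that would check the labelled tissue, and markers of neurons and astrocytes, are known by symbol only and could not be read from the table.

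Bdnf, the ligand, was close to or below the limit of detection in all libraries but normal replicate 2, where it was still low. It had 4, 0 and 4 counts in EAP replicates 1, 2 and 3, and 4, 12 and 0 counts in normal replicates 1, 2 and 3. These 24 counts are all that the 6 libraries hold for this gene. In each group 1 library had no Bdnf count, and the groups overlapped. For a count of 0 the limit was set at 3 counts, which is 0.222 CPM in EAP replicate 2 and 0.205 CPM in normal replicate 3. The 95% Poisson interval used for the other libraries would reach further, to 3.69 counts, which is 0.273 and 0.252 CPM. These limits, and all intervals on counts below, cover counting error only.

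On the CPM scale the EAP libraries were at 0.313, 0 and 0.297 and the normal libraries at 0.313, 0.887 and 0, in the same order. Normal replicate 2 was the highest of the 6 and gave 50% of all Bdnf counts and 75% of those in the normal group. Its 95% Poisson interval, 0.458 to 1.55 CPM, lay above the limits just given for the libraries with no count. It overlapped the intervals of the 3 libraries with 4 counts, the widest of which ran from 0.0853 to 0.802 CPM. By these intervals normal replicate 2 stood apart from EAP replicate 2 and normal replicate 3, and no EAP library stood apart from another EAP library.

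Bdnf averaged 0.203 ± 0.176 CPM over the EAP libraries and 0.4 ± 0.45 CPM over the normal ones (SD, n = 3 each; two-sided exact permutation p = 0.7, where 3 libraries against 3 cannot go below 0.1). The SD was nearly as large as the mean in EAP and larger than the mean in normal. Pooled over libraries, 8 counts in EAP stood against 16 in normal, a ratio of 0.516. Its exact 95% interval, 0.191 to 1.28, covers counting error only and leaves out the spread between libraries, so it is too narrow for a comparison of groups. Without normal replicate 2 the direction turned: 8 counts stood against 4, a ratio of 1.38 (0.37 to 6.27). A difference in Bdnf between EAP and normal brain was not detected with 3 libraries per group at this depth. The counting intervals include decreases as well as increases. So does the wider interval of the edgeR fit with no filter, which takes in the spread between libraries (log2 -3.55 to 1.67). In bulk tissue, fewer cells that make a transcript and less of it per cell cannot be told apart.

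The expression filter of edgeR, which asks for enough counts in at least as many libraries as a group holds, left Bdnf out among the 9095 genes not tested. With no filter, edgeR's quasi-likelihood test gave Bdnf a log2 fold change of -0.94 (SE 1.21, 95% interval -3.55 to 1.67) with a Benjamini-Hochberg adjusted p of 0.807. In that fit 7 of 17041 genes, 0.0411%, passed an adjusted p of 0.05. DESeq2 gave Bdnf -0.98 (SE 1.52) with an adjusted p of 0.925, and called 1.3% of the genes it gave an adjusted p. Both fits placed Bdnf among the genes not called, with errors larger than the fold change.

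**Figure D1:**
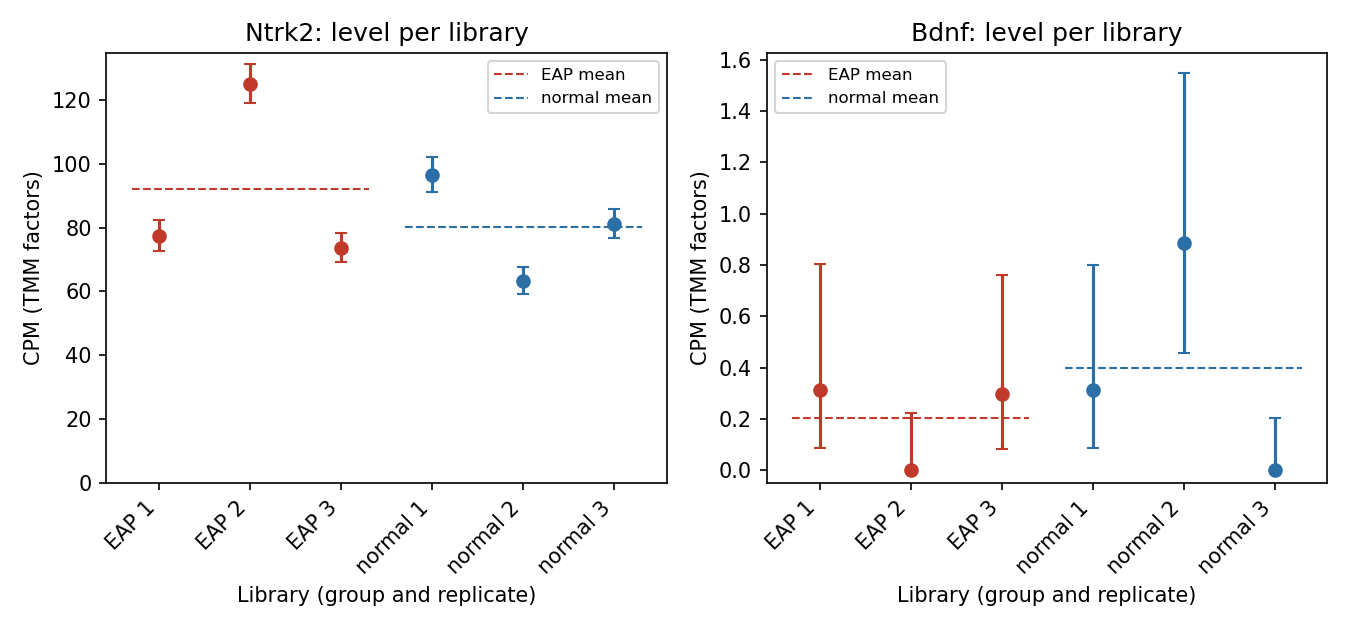
Level of Ntrk2 (left) and Bdnf (right) in each of the 6 libraries, in CPM with TMM factors on separate linear axes. Points are libraries, bars are 95% Poisson intervals from the counts (for a count of 0, up to the limit of 3 counts) and dashed lines are group means; Ntrk2 is highest in EAP replicate 2 (125 CPM) and lowest in normal replicate 2 (63.3 CPM), while Bdnf is highest in normal replicate 2 (0.887 CPM) and has no count in EAP replicate 2 and normal replicate 3.

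Ntrk2, the receptor, was well covered in all libraries and did not pass the test between groups. It had 988, 1686 and 991 counts in EAP replicates 1, 2 and 3, and 1233, 857 and 1190 counts in normal replicates 1, 2 and 3. These counts correspond to 77.4, 125 and 73.6 CPM in EAP and to 96.4, 63.3 and 81.2 CPM in normal. The highest and the lowest library were EAP replicate 2 and normal replicate 2, and the other 4 lay between them with the groups overlapping. Among the genes tested, the 3 libraries of 1 group lay clear of the 3 of the other in 16.8%.

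Set in order, Ntrk2 fell from EAP replicate 2 through normal replicate 1, normal replicate 3, EAP replicate 1 and EAP replicate 3 to normal replicate 2. The 95% Poisson interval of EAP replicate 2, 119 to 131 CPM, lay above that of normal replicate 1, 91.1 to 102 CPM, which in turn lay above the next 3. The intervals of those 3 libraries overlapped. Normal replicate 3 spanned 76.7 to 86.0 CPM, EAP replicate 1 72.6 to 82.3 CPM and EAP replicate 3 69.1 to 78.3 CPM. Overlap of intervals does not show that 2 libraries were alike within counting error, and single libraries were not tested against each other. Normal replicate 2, at 59.2 to 67.7 CPM, lay below them. EAP replicates 1 and 3 thus sat beside normal replicate 3 in the middle of the order, with 1 EAP and 1 normal library above them and 1 normal library below.

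Ntrk2 averaged 92.0 ± 28.6 CPM over the EAP libraries and 80.3 ± 16.6 CPM over the normal ones (SD, n = 3 each), a difference smaller than the SD of either group. The log2 fold change, EAP over normal, was 0.20 (SE 0.245, 95% interval -0.39 to 0.78), with a Benjamini-Hochberg adjusted p of 0.802 from edgeR's quasi-likelihood test over 13155 genes and an unadjusted p of 0.451. On the linear scale this is a 1.15-fold higher mean with an interval from 0.764-fold to 1.72-fold. The interval includes no difference as well as rises and falls up to these bounds, so the test does not show that Ntrk2 was the same in both groups. Of the genes tested, 4 passed the adjusted threshold of 0.05, 0.0304%, and 11.1% had an unadjusted p under 0.05. Ntrk2 was in neither set, and 56.3% of the genes had a smaller p.

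The direction of the Ntrk2 difference rested on EAP replicate 2. Without it the log2 fold change was -0.09 (95% interval -0.48 to 0.30, edgeR adjusted p = 0.918), and leaving out normal replicate 2, the lowest library, brought it to 0.04 (adjusted p = 0.958). Leaving out any of the other 4 libraries gave 0.21 to 0.35. Ntrk2 passed the adjusted threshold in none of these fits. On the CPM scale, whose TMM factors centre each library on the bulk of its genes, EAP replicate 2 was the highest of the 6 libraries in 16.5% of the genes tested and normal replicate 2 the lowest in 11.9%.

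**Figure D2:**
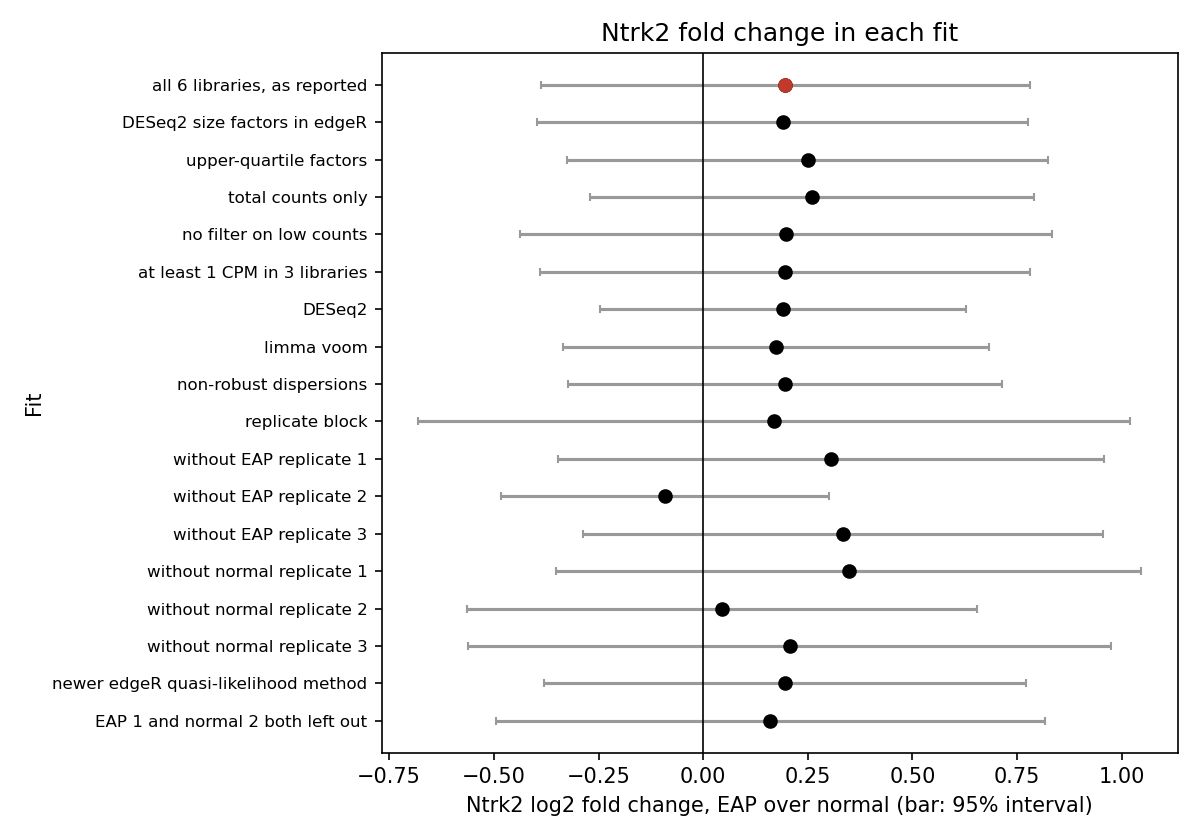
Log2 fold change of Ntrk2, EAP over normal, in each fit run across all genes (rows); points are estimates, bars are 95% intervals, and the red point is the reported fit to all 6 libraries (0.20). Every interval spans 0, and the estimate lies below 0 in 1 fit, the one without EAP replicate 2 (-0.09).

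Ntrk2 varied more between libraries of 1 group than counting error gives. Counting alone gives its levels a coefficient of variation (CV, SD over mean) of 2.44% to 3.42% per library. The measured CV was 31.1% over the EAP libraries and 20.6% over the normal libraries. For comparison, 1867 other genes lay within 0.5 of Ntrk2 in mean log2 CPM. Their median CV was 7.44% in EAP and 8.39% in normal, and 96.4% and 90.6% of them had a smaller CV than Ntrk2. The large spread was thus seen in both groups, in EAP through 1 high library and in normal through libraries on both sides of the mean.

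**Figure D3:**
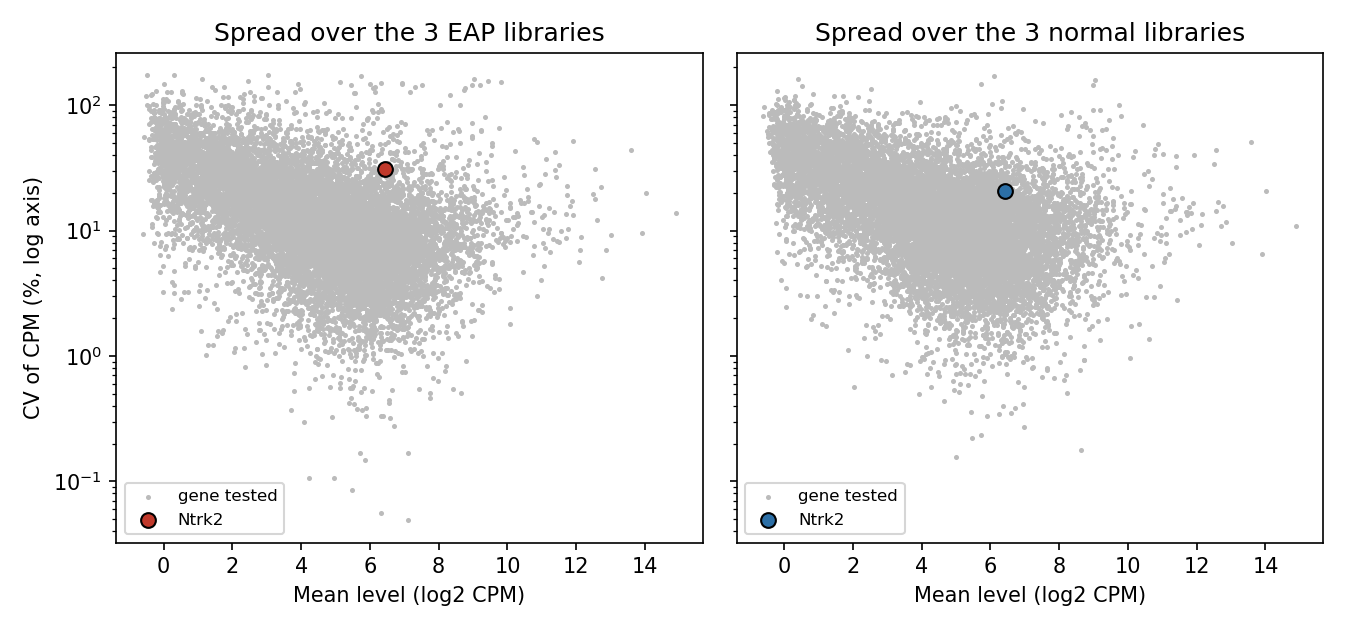
Spread between the 3 libraries of a group (CV of CPM in percent, log axis) against mean level (log2 CPM) for the genes tested with a CV above 0; each grey point is a gene and the coloured point is Ntrk2. Ntrk2 lies toward the upper edge of the genes of its level in both panels, at 31.1% in EAP and 20.6% in normal.

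Genes with a pattern like that of Ntrk2 were sought by Pearson correlation of log2 CPM over the 6 libraries, among 9774 other genes whose log2 CPM averaged 3 or more. A correlation of 0.9 or more was reached by 30 of them (0.307%) and one of -0.9 or less by 39 (0.399%), and the median was 0.0058. The closest was ENSRNOG00000020467 (r = 0.977, 6 libraries), at 187, 252 and 189 CPM in the EAP libraries and 221, 180 and 192 CPM in the normal libraries, in order of replicate. It shared with Ntrk2 the maximum in EAP replicate 2, the second place of normal replicate 1 and the minimum in normal replicate 2. The next was ENSRNOG00000004130 (r = 0.970, 6 libraries), at 65.3, 72.7 and 65.9 CPM in EAP and 67.6, 61.9 and 66.7 CPM in normal, with the same highest and lowest library but a narrower range. EAP replicate 2 was the highest and normal replicate 2 the lowest library in 308 of the 13155 genes tested (2.34%). These correlations describe 6 libraries, which share their depth and scaling between genes, and the 2 genes were picked for the highest values.

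Ligand and receptor were also set against each other within each library, where scaling factors cancel. Bdnf had 4.05, 0 and 4.04 counts per 1000 Ntrk2 counts in the EAP libraries, and 3.24, 14.0 and 0 in the normal libraries, in order of replicate. Normal replicate 2 was the highest, holding both the most Bdnf and the least Ntrk2. Its value rests on 12 Bdnf counts, and counting error did not separate its Bdnf level from that of the libraries with 4 counts. The mean was 2.69 ± 2.33 in EAP and 5.75 ± 7.33 in normal (SD, n = 3 each; two-sided exact permutation p = 0.9). Without normal replicate 2 the EAP mean exceeded the normal mean by 1.07 counts per 1000 (exact permutation p = 0.6). The groups overlapped, and a shift between ligand and receptor was not detectable at this depth.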

How the data were processed

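The authors deposited raw read counts per Ensembl gene, per the file headers, for 6 libraries. The build Rnor_6.0 and the tools featureCounts 2.0.3, HISAT2 2.2.1, DESeq2 1.36.0 and Trimmomatic 0.39 come from the submitters' processing notes. The annotation release and strand setting were not given in these sources, so reads of overlapping or antisense genes could not be separated. Counts were tested with edgeR 4.0.16 (R 4.3.3; legacy quasi-likelihood test, TMM, robust dispersions, group only), which kept 13155 genes. The 9095 genes left out held 0.0761% of counts. Alternatives used DESeq2 1.42.0 and limma 3.58.1, and the edgeR fit was tested on simulated data. Bdnf was left out by the filter, so its comparison is an exact permutation test on CPM. As Bdnf was 0 in 2 libraries, the planned log2 ratio of Ntrk2 to Bdnf was replaced by Bdnf per 1000 Ntrk2 counts. A log2 form, Bdnf minus Ntrk2 in log2 CPM with a prior count of 2 added against zeros, was also computed. Its difference, EAP minus normal, was -0.578 (exact permutation p = 0.7). The 58 neurotrophin pathway genes and 31 cell type markers could not be matched to IDs (0 of each) and are not reported. The named genes are the 2 members and the 2 genes most correlated with Ntrk2; Bdnf fell under the level asked for. Members and lists were chosen with earlier results of these data known.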

Additional observations from a re-analysis of the deposited data

How the results depend on the processing

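Ntrk2 did not pass an adjusted p of 0.05 in any of 17 other fits (adjusted p 0.672 to 0.958), and its log2 fold change kept its direction in all but the one without EAP replicate 2 (-0.092); over the fits without 1 library it ran from -0.09 to 0.35. For Bdnf the log2 ratio of means was -0.98, and -1.56 to 0.38 without 1 library, with the direction turned without normal replicate 2; the 1 CPM filter, limma voom and non-robust dispersions gave it no value, since their filters leave it out. For Bdnf per 1000 Ntrk2 counts the difference, EAP minus normal, was -3.05, and -5.93 to 1.07 without 1 library; it turned to 0.396 with EAP replicate 1 and normal replicate 2 both left out, an alternative chosen after the data were seen, like the newer edgeR method. The number of genes past the threshold, 4 with edgeR, was 0 with upper-quartile factors, non-robust dispersions and the newer edgeR method (unadjusted p under 0.05 in 1536, 1512 and 1484 genes). It was 1 with total counts and with limma voom, 7 with no filter, 187 with DESeq2, 80 with the replicate block, 333 without EAP replicate 1 and normal replicate 2, and 0 to 47 without 1 library; the cause was not tested. With the replicate block the log2 fold change of Ntrk2 was 0.17 (adjusted p = 0.884), and paired differences by replicate number gave an exact p of 1 for Bdnf and for the ratio (-3.05). That paired test cannot go below 0.25 with these libraries, so it could not have reached 0.05. Libraries with the same number had deviations from their group means that correlated at 0.0515 to 0.0718, below the limit of 0.1 for a pair, although each of the 6 was closest to its own number. The 24 counts of Bdnf limit what can be seen of it.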

Other observations

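No relation between Bdnf and Ntrk2 over the 6 libraries passed a test. The 2 extreme libraries lay opposite: EAP replicate 2, with the most Ntrk2, had no Bdnf count, and normal replicate 2, with the least Ntrk2, had the most Bdnf. The others did not follow that order, since normal replicate 1 had the second-highest Ntrk2 with 4 Bdnf counts and normal replicate 3 had no Bdnf count at a middle Ntrk2 level. Pearson's r between their CPM values was -0.663 (exact permutation p = 0.147, n = 6) and Spearman's rho was -0.667 (exact permutation p = 0.161, n = 6). Both p-values were 0.161 after Benjamini-Hochberg adjustment over these 2 measures of the same relation. The size of r depended on which libraries were used: it was -0.528 without normal replicate 2, which holds 50% of the Bdnf counts, and -0.976 over 4 libraries without EAP replicate 2 and normal replicate 1, the 2 farthest from the median Ntrk2 level. Those 4 libraries hold only 4, 4, 12 and 0 Bdnf counts (EAP replicates 1 and 3, normal replicates 2 and 3), and the value of -0.976 was not tested. The choice between normal replicates 1 and 2 was close. Normal replicate 2, at 63.3 CPM of Ntrk2, lay nearly as far below the median as normal replicate 1, at 96.4 CPM, lay above it. The value of -0.976 therefore depends on keeping normal replicate 2, and r with that library left out in place of normal replicate 1 is not given here. The relation was looked at after the values were seen.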
